A study of Mus musculus with 54 samples.

Results

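Messenger RNA of Fos, an immediate-early gene, differed between mice in the cortex of this Mbd5 mouse cohort, and the 12 cortex libraries at the ends of that range are described here. The 18 cortex libraries were ranked by the Fos count in CPM (the count scaled to a common total of gene counts, spike-in RNA left out), and the 6 highest formed the high-Fos class and the 6 lowest the low-Fos class, with both genotypes pooled. The classes are thus 12 of 18 cortex libraries and 12 of 54 libraries in all. Because the mice were chosen by their cortex Fos value itself, every cortex difference between the classes is given as a description with no test. Tests were made on the striatum and cerebellum libraries of the same 12 mice, whose values the ranking did not use.

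The cohort was made of 18 mice of 8 weeks from 3 litters on a C57BL/6 background, of which 10 were Mbd5+/GT and 8 wild-type. Mbd5+/GT mice carry on 1 allele a gene-trap construct, pU-21B, inserted in intron 2 of Mbd5, which lowers but does not abolish Mbd5 expression throughout the animal. Poly(A) RNA of the cortex, the striatum and the cerebellum of each mouse was sequenced as 1 library each, so each region has 18 libraries and each mouse is 1 replicate. Libraries held between 25295973 and 49027399 gene counts over 47069 genes. Litter 1 held 3 Mbd5+/GT and 3 wild-type mice, all female, litter 2 held 4 Mbd5+/GT mice and 1 wild-type mouse, all male, and litter 3 held 3 Mbd5+/GT and 4 wild-type mice, 4 female and 3 male. In cortex, Mbd5 itself was at 39.5 to 51.3 normalized CPM in the Mbd5+/GT mice and at 46.9 to 74.0 normalized CPM in the wild-type mice, which overlapped through a single wild-type mouse, M757.

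Fos encodes a subunit of the AP-1 transcription factor. In neurons its transcription starts within minutes of strong synaptic input, through calcium and cyclic AMP signals that act on CREB and through the MAP kinase pathway that acts on serum response factor, and the transcript is short-lived. Fos belongs to a set of genes that respond in this way, which includes other transcription factors (Fosb, Junb, Egr1, Npas4, Nr4a1), effectors such as Arc and the phosphatase Dusp1, and late response genes such as Bdnf that follow. Tissue levels of these transcripts are widely used to mark recently active brain regions.

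The cyclic AMP response element to which CREB binds has the core TGACG. The 250 bases before a RefSeq transcript start are shown for Fos, for Nr4a1 and Dusp1, whose cerebellar levels are described below, and for Fkbp5, a glucocorticoid-induced gene that was lower in the same libraries, all read from RefSeq on GRCm38.p6 and written in the direction of transcription. Capitals mark TGACG, or CGTCA where it lies on the other strand, and the full element TGACGTCA where it is present.
Fos, chr12:85473640-85473889, plus strand: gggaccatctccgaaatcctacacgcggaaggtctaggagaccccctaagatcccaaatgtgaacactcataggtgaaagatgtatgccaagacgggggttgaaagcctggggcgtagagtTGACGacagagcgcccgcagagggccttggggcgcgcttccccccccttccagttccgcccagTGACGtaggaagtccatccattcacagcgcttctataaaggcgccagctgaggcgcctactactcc
Nr4a1, chr15:101266596-101266845, plus strand: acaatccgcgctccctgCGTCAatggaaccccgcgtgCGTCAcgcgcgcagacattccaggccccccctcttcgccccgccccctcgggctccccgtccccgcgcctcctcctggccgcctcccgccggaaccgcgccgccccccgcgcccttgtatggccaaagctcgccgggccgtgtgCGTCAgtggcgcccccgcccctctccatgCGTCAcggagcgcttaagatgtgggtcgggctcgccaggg
Dusp1, chr17:26508473-26508722, minus strand: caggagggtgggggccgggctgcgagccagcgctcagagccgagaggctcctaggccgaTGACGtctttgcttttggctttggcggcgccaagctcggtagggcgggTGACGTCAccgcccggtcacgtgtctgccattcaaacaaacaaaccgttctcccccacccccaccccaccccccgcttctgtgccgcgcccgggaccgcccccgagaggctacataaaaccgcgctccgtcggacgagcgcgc
Fkbp5, chr17:28486150-28486399, minus strand: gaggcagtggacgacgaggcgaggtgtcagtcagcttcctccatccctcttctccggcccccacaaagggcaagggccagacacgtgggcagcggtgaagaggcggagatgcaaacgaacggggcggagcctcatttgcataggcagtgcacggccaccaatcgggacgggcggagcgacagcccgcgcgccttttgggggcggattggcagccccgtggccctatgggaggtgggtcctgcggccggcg
The gene intervals used for counting reach further upstream than these starts for Nr4a1, Dusp1 and Fkbp5, so their windows lie inside those intervals and precede 1 of several transcript starts. Fos held 2 such cores in this window, Nr4a1 held 4, Dusp1 held 3 (its TGACGTCA counted once on each strand) and Fkbp5 held none. Of 24 listed immediate-early transcription factor genes, 18 had a RefSeq promoter entry (250 bases before to 50 after the start), and 14 of those held TGACG on either strand, beside 23% of 27025 genes. Of other factors described as higher in cerebellum below, Nr4a2 and Nr4a3 held 4 each, Egr4 held 2, Fosl2 held none and Ier2 had no entry. The full element TGACGTCA, which contains TGACG, was present in 2 of the 18 genes and 2.03% of all genes. The AP-1 site TGACTCA was present in 1 of 18 and 5.95%, the EGR site GCGTGGGCG in 1 of 18 and 0.707%, and the CArG box of serum response factor in 1 of 18 and 1.81%. These letters are a description of the window and not of binding, and TGACG was added to the search after the other motifs had been counted.

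Fos (ENSMUSG00000021250, chr12:85473890-85477273, plus strand) was at 17.6 to 41.8 CPM in the 18 cortex libraries, a 2.38-fold range. The high class held mice M760 (41.8 CPM), M756 (41.5), M758 (41.3), M766 (39.7), M751 (39.1) and M752 (37.1). The low class held mice M768 (25.1 CPM), M765 (24.9), M761 (23.7), M755 (22.7), M762 (21.3) and M763 (17.6). The class means were 40.1 ± 1.81 CPM (SD, n = 6) and 22.6 ± 2.82 CPM (SD, n = 6), a ratio of 1.78. The 6 remaining mice lay between 25.8 and 35.0 CPM. There was no gap in counting terms at either edge. Mouse M752, the last of the high class, had a 95% exact Poisson interval of 34.9 to 39.4 CPM beside 32.8 to 37.2 CPM for mouse M753, the first outside it. Mouse M768, the first of the low class, had an interval of 23.3 to 26.9 CPM beside 23.9 to 27.8 CPM for mouse M767. These intervals cover counting error only. Ranking after trimmed-mean (TMM) scaling, used for all normalized CPM below, chose the same 12 mice.

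**Figure D1:**
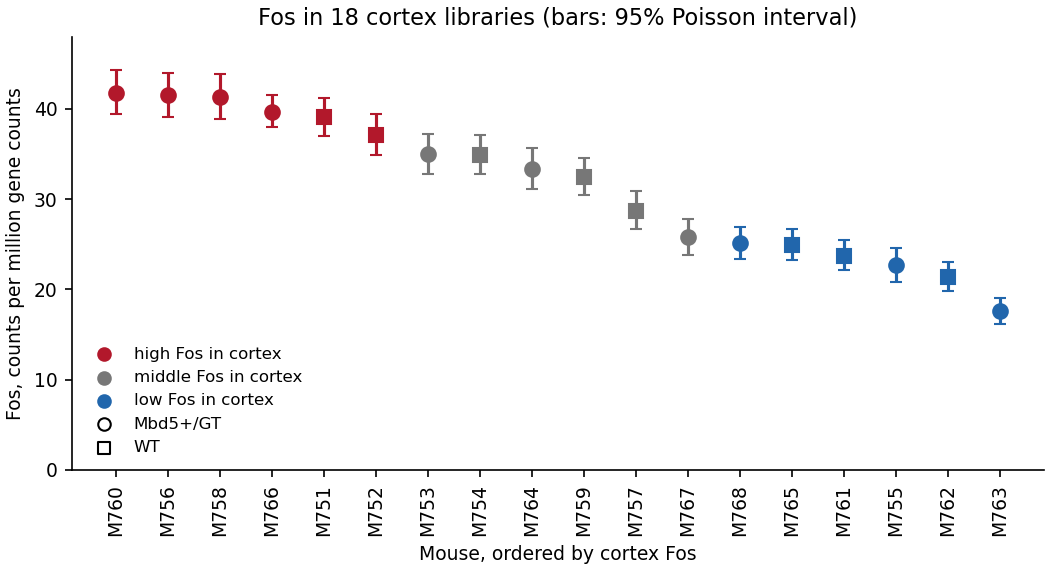
Fos in the 18 cortex libraries, in CPM with 95% exact Poisson intervals, ordered by rank and coloured by class. The values run from 17.6 to 41.8 CPM without a break at either class edge.

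The classes did not separate by genotype. The high class held 4 Mbd5+/GT and 2 wild-type mice and the low class 3 and 3 (2-sided Fisher's exact test, p = 1). Over all 18 mice, cortex Fos was at 32.1 ± 8.71 normalized CPM (SD, n = 10) in Mbd5+/GT and 30.7 ± 7.20 normalized CPM (SD, n = 8) in wild-type mice. The difference of mean log2 CPM was 0.05, well within the spread between mice (2-sided exact permutation test over 43758 splits, p = 0.805; p = 0.806 with splits kept within litters). It was 0.27 in litter 1, 0.30 in litter 2 and -0.15 in litter 3. Sex was also mixed, with 3 females and 3 males in the high class and 4 and 2 in the low class (2-sided Fisher's exact test, p = 1). Litters were unevenly spread, with 2, 1 and 3 high mice and 3, 2 and 1 low mice in litters 1, 2 and 3, so values within litters are given beside the results. In every region, a class difference within litter 2 rests on 1 high mouse, M766. Within litter 3 it rests on 1 low mouse, M755.

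A cerebellum library of the low class stood apart. In the library labelled cerebellum of mouse M755, the granule cell gene Gabra6 was at 1.82 normalized CPM, against 232 to 962 in the other 17, and the Purkinje cell gene Pcp2 was at 1.66 normalized CPM. The same library held Hoxb5, a hindbrain and spinal cord gene, at 87.3 normalized CPM. The defining cerebellar neuron markers were thus nearly absent, and values without this mouse are given beside the cerebellar results. It is also the only low-class mouse of litter 3. Every cerebellar value of litter 3 below therefore compares high-class mice with this library alone, and is not a separate replication. Hoxb5 was also at 13.3 normalized CPM in the cerebellum library of mouse M756 (high class) and at 11.1 in that of mouse M761 (low class). Both libraries stay in the values without mouse M755. Mouse M754, in neither class, had the next lowest Gabra6 (232 normalized CPM) and Hoxb5 at 38.5 normalized CPM. Its striatum library had Drd2, a striatal neuron receptor, at 2.85 normalized CPM. The next lowest striatal Drd2 was in mouse M761 of the low class, at 17.5 normalized CPM. That library is part of the striatal tests. The striatum libraries of mice M751 and M752, both of the high class, were labelled as repeated.

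In cortex, the immediate-early transcription factors were on balance higher in the high class. Of 23 list members at a mean of at least 1 CPM (Fosl1 was below it), 20 had a positive log2 difference, with a median of 0.37, whereas the median of all 14829 genes at that level was -0.00064. Only Fos itself did not overlap between the classes. Over all 14829 genes, 4 (0.027%) were higher and 2 (0.0135%) lower with no overlap. These are measures from the libraries that the ranking used and support nothing about the list.

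Egr2, a zinc finger factor, was at 8.03 to 16.3 normalized CPM (median 9.02) in the high class and at 4.02 to 8.04 (median 5.44) in the low class, a log2 difference of 0.83. Arc, which encodes a synaptic protein that regulates AMPA receptors, was at 158 to 523 normalized CPM (median 236) and 104 to 219 (median 160), a log2 difference of 0.75. Npas4, a factor induced selectively by neuronal calcium, was at 23.7 to 38.1 normalized CPM (median 29.7) and 15.2 to 27.5 (median 20.4), a log2 difference of 0.57. The classes overlapped for each of these 3 genes, by the width of a single pair of mice for Egr2. The orphan receptor gene Nr4a1 was at 94.6 to 147 normalized CPM (median 115) and 68.9 to 98.2 (median 78.2), a log2 difference of 0.53. Junb, an AP-1 partner of Fos, was at 28.1 to 44.0 normalized CPM (median 37.7) and 19.7 to 34.4 (median 28.9), a log2 difference of 0.47. Egr1, another widely used marker of activity, was at 192 to 475 normalized CPM (median 309) and 199 to 261 (median 210), a log2 difference of 0.46. Its lowest value of all 12 libraries was in a high-Fos mouse, M758. The order of the mice by Fos was therefore not the order by Arc or Egr1, since mouse M758 also had Arc at only 186 normalized CPM and mouse M751 had the highest level of both genes.

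Other factors with log2 differences above the median of the list were Atf3 at 0.64, Fosb at 0.57, Ier2 at 0.53, Fosl2 at 0.52 and Nr4a3 at 0.48. Jun, Jund and Maff had differences at or below zero, of which Maff was the lowest at -0.15. The list median was 0.23 in litter 1, 0.30 in litter 2 and 0.81 in litter 3. The summed level of the list was 753.3 to 1351 normalized CPM (median 1052) in the high class, 891 to 1151 (median 1022) in the remaining 6 mice and 680 to 968 (median 778) in the low class. The middle mice thus lay within the range of the high class and also overlapped the low class.

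**Figure D2:**
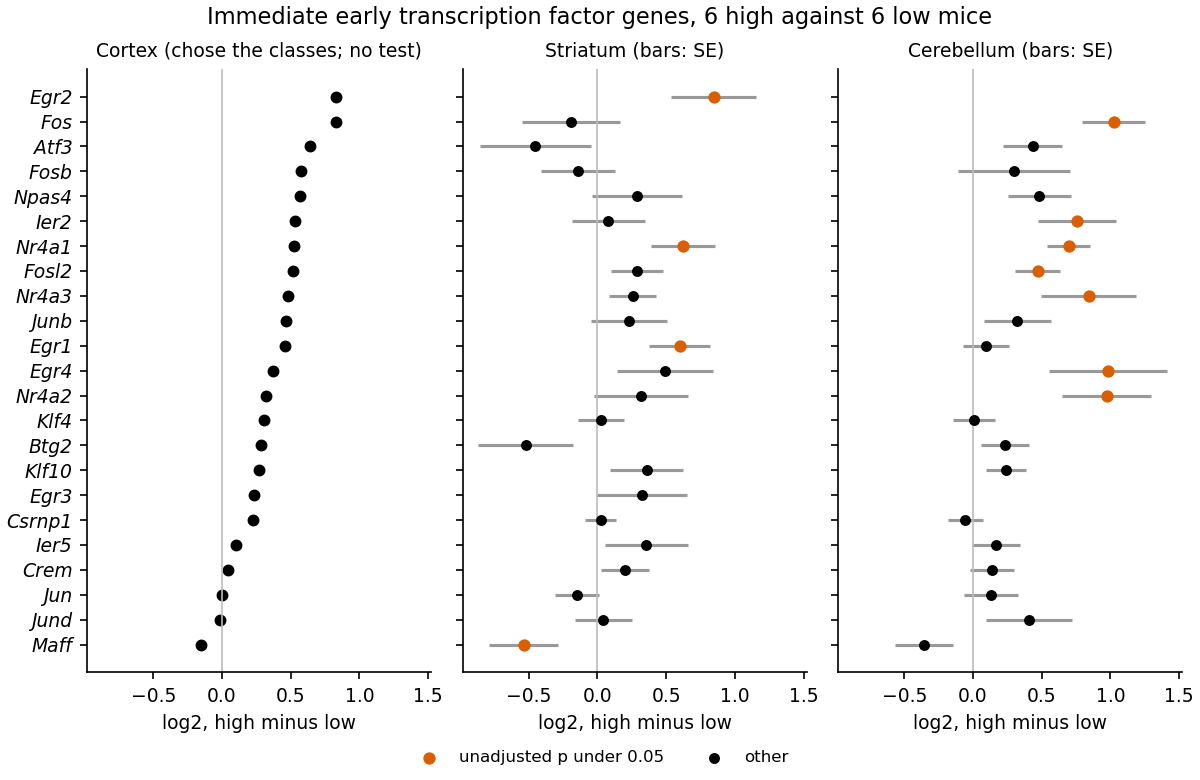
Log2 difference, high minus low class, of the immediate-early transcription factors in the cortex, striatum and cerebellum libraries of the same mice. Orange points passed unadjusted p under 0.05 in edgeR, bars are SE, and cortex is a description without a test. In cerebellum 7 genes are orange, all to the right of zero.

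Effectors and late genes showed smaller differences in cortex. Of 22 effectors, 18 had a positive log2 difference, with a median of 0.17, led by Arc and followed by Sik1 at 0.44 and Dusp1 at 0.39. Of 15 late response genes, 10 were positive, with a median of 0.10. Pcsk1, which processes neuropeptide precursors, was at 0.45, and Tac1, the substance P precursor, was at -0.60. Of 11 vascular early response genes, 3 were positive, with a median of -0.06. Over these 4 lists together, 51 of 71 measured genes of 72 listed were positive.

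Transcripts of the signalling proteins upstream of Fos were close to level in cortex, and neither protein amount nor activity was measured. Of 22 regulators (CREB and its coactivators, serum response factor, calcium/calmodulin kinases and MAP kinases), 7 had a positive log2 difference, with a median of -0.03, and Camk2a and Camk4, the members with the largest differences, were at -0.19 and -0.18. Of 10 heat shock genes, 10 were positive, with a median of 0.11 and Hspa1a at 0.20. Of 16 circadian clock genes, 9 were positive, with a median of 0.03, Per1 at 0.32 and Per2 at 0.16. Of 9 hypoxia genes, 1 was positive, with a median of -0.10. Of 14 glucocorticoid-induced genes, 1 was positive, again Per1, which is in both lists, with a median of -0.08. Within this list Fkbp5, a cochaperone of the glucocorticoid receptor, was at -0.44 and the lipid droplet gene Plin4 at -0.48, and the list median was -0.33, -0.13 and 0.66 in litters 1, 2 and 3.

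Several markers of tissue makeup also differed between the classes in cortex, and their part in the differences above was not tested. In bulk tissue, fewer cells of a type and less RNA per cell cannot be told apart. Of 12 striatal neuron markers, none was positive, with a median of -0.38. Their summed level was nevertheless 469 to 2604 normalized CPM in the high class and 661 to 2639 in the low class, and none of the 12 was absent in cortex. Of 7 choroid plexus markers, 7 were positive, with a median of 1.20 and the defining gene Ttr at 4.18 to 1160 normalized CPM (median 263) against 1.84 to 1067 (median 25.2). The summed choroid plexus level was 35.3 to 1289 normalized CPM against 8.23 to 1163. Of 8 oligodendrocyte genes, 8 were positive, with a median of 0.22 and a summed level of 4444 to 7310 normalized CPM against 3417 to 7900. Of 5 erythrocyte genes, 5 were positive, with a median of 0.51 and a summed level of 77.5 to 185 normalized CPM against 50.7 to 171. Each of these 4 lists overlapped widely between the classes in summed level.

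The remaining cell type lists were closer to zero. Cortical excitatory neuron markers were positive for 2 of 11, with a median of -0.07 and a summed level of 1114 to 2306 normalized CPM against 1351 to 2139. Interneuron markers were positive for 4 of 10 (median -0.03), hippocampal neuron markers for 3 of 8 (median -0.11), astrocyte markers for 4 of 7 (median 0.04), microglia markers for 4 of 7 (median 0.01), endothelial markers for 5 of 7 (median 0.01) and meningeal markers for 0 of 8 (median -0.20). Of 11 mitochondrially encoded genes, none was positive, with a median of -0.15. All genes with an mt- symbol, listed or not, together took 5.75 to 7.85% of gene counts in the high class and 6.19 to 8.25% in the low class.

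Outside the lists, 3 genes were higher and 2 lower in cortex with no overlap. The long noncoding RNA 1700016P03Rik (ENSMUSG00000085609, chr11:75172560-75177633, plus strand) was at 14.1 to 18.6 normalized CPM (median 17.4) in the high class and 8.75 to 13.0 (median 10.6) in the low class, a log2 difference of 0.63. Chdh, choline dehydrogenase, was at 6.35 to 8.70 normalized CPM (median 7.13) and 4.80 to 5.94 (median 5.59), a log2 difference of 0.42. Zfp36l1, an RNA-binding protein that promotes mRNA decay, was at 21.7 to 23.2 normalized CPM (median 22.4) and 15.4 to 21.5 (median 19.5), a log2 difference of 0.25. The lower genes were Ermap, an erythroid membrane protein, at -0.62 and Stom, stomatin, at -0.19. Of these 5 genes, 1700016P03Rik had the largest positive difference.

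The gene interval of 1700016P03Rik holds both arms of miR-212 and miR-132 on the same strand. miR-132 is a neuronal microRNA known to be induced through CREB, and its 3p arm shares its seed (bases 2 to 8, in capitals) with the 3p arm of miR-212. Both are shown because the transcript spans them, with sequences and positions from RefSeq on GRCm38.p6.
mmu-miR-132-3p, chr11:75173723-75173744, plus strand: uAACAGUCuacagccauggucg
mmu-miR-212-3p, chr11:75173443-75173464, plus strand: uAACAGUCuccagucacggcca
Mature microRNAs were not counted in poly(A) libraries, so no level of either is given.

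In the cerebellum of the same mice, Fos was also higher in the high class. It was at 24.2 to 47.3 normalized CPM (median 35.6) in the 6 high-Fos mice and at 10.9 to 22.7 normalized CPM (median 17.3) in the 6 low-Fos mice, and the classes did not overlap. The means were 34.9 ± 8.76 and 17.1 ± 5.67 normalized CPM (SD, n = 6 each), a difference of mean log2 CPM of 1.05 (2-sided exact permutation test, p = 0.0022, the smallest that all splits of 12 mice can give). The difference was 1.40 in litter 1, 0.72 in litter 2 and 0.61 in litter 3. It was 0.80 within Mbd5+/GT mice (4 against 3, exact permutation p = 0.057) and 1.40 within wild-type mice (2 against 3, exact permutation p = 0.20). The 6 middle mice spanned 21.0 to 48.2 normalized CPM, so they overlapped both classes and reached above the high class. In the fit across 18067 genes, the Fos log2 fold change was 1.02 (SE 0.23, edgeR quasi-likelihood p = 0.00068, Benjamini-Hochberg adjusted p = 0.82). With the 9 highest against the 9 lowest mice it was 0.48 by exact permutation (p = 0.11), past no threshold.

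**Figure D3:**
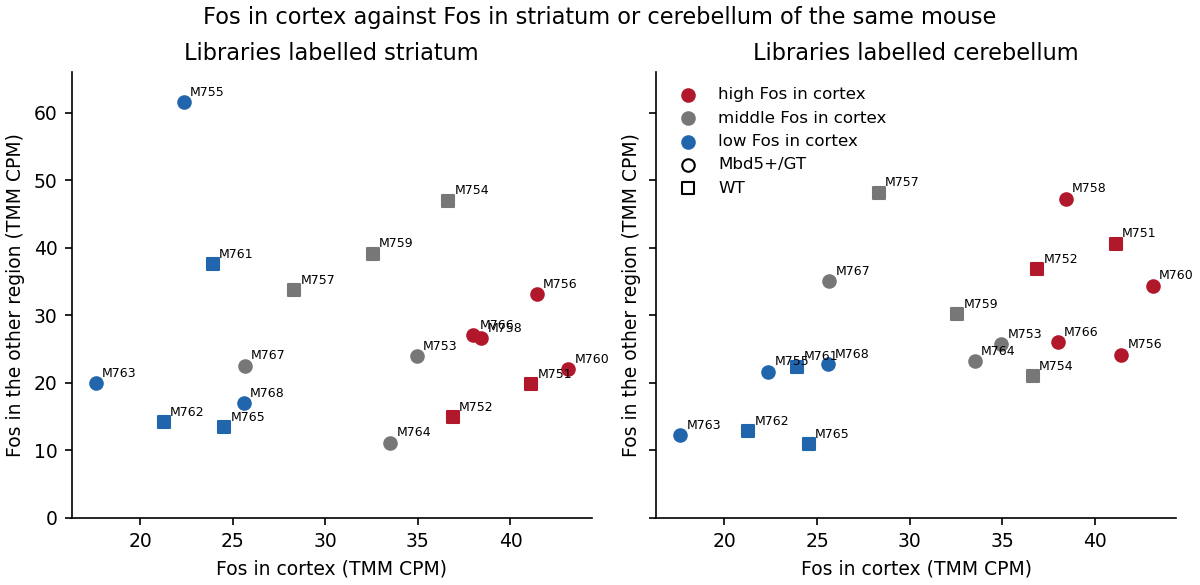
Fos in the striatum and cerebellum libraries against Fos in the cortex library of each of the 18 mice, in normalized CPM, coloured by class, with circles for Mbd5+/GT and squares for wild-type mice. In cerebellum the 6 high-Fos mice lie at 24.2 to 47.3 and the 6 low-Fos mice at 10.9 to 22.7; in striatum the classes overlap.

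No gene passed the adjusted threshold of 0.05 in the cerebellum with edgeR, so the counts that follow are at unadjusted p under 0.05, at which 141 genes (0.78%) were higher and 449 (2.49%) lower. Of 21 immediate-early transcription factors tested, 7 were higher and none lower (Egr2, Egr3 and Fosl1 had too few counts to be tested). Of the 21, 19 had a positive log2 fold change, with a median of 0.32 against -0.02 for all genes. Without mouse M755, 10 of the 21 were higher and none lower, beside 173 (0.948%) higher and 231 (1.27%) lower of all genes. With the 9 highest against the 9 lowest mice none was called in either direction, beside 0.256% of all genes higher. With litter in the fit 8 were higher, beside 10.4% of all genes. Without the count filter 8 of 24 were higher and 2 lower, beside 0.983% and 2.7% of all genes. Without litter 2, 8 of 22 were higher and 2 lower, beside 7.35% and 8.41%.

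Nr4a1 had the smallest p of these factors. It was at 32.6 to 47.7 normalized CPM (median 40.4) in the high class and 15.3 to 32.2 (median 25.4) in the low class, with no overlap, and its log2 fold change was 0.70 (SE 0.16, edgeR p = 0.00060, adjusted p = 0.82). The lowest of these values was the library of mouse M755, without which the low class was at 23.8 to 32.2 normalized CPM and the log2 fold change was 0.59 (edgeR p = 0.00017, adjusted p = 0.79). The difference was 0.74, 0.55 and 1.31 in litters 1, 2 and 3. Fos and Nr4a1 were the 2 of the 21 factors whose classes did not overlap in the cerebellum, with or without mouse M755. Over all genes tested, 10 (0.0553%) were higher and 7 (0.0387%) lower with no overlap, and without mouse M755 these were 13 (0.072%) and 16 (0.0886%).

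The paralogs of Nr4a1 differed in the same direction. Nr4a2 was at 20.8 to 40.4 normalized CPM (median 32.2) and 3.91 to 21.0 (median 17.8), with a log2 fold change of 0.97 (SE 0.32, edgeR p = 0.010). Nr4a3 was at 23.7 to 49.2 normalized CPM (median 38.3) and 4.56 to 28.1 (median 24.5), with a log2 fold change of 0.84 (SE 0.35, edgeR p = 0.030). For both genes mouse M755 was far below the rest of its class, and without it the log2 fold changes were 0.77 and 0.63. The other factors past the unadjusted threshold were Ier2 at 0.76, Fosl2 at 0.47 and Egr4 at 0.98, and without mouse M755 these were 0.63, 0.43 and 0.78, still past it. The phosphatase gene Dusp1, which ends MAP kinase signalling, was at 37.5 to 55.9 normalized CPM (median 49.2) and 19.0 to 48.96 (median 29.2), with a log2 fold change of 0.68 (SE 0.19, edgeR p = 0.0032). Without mouse M755 it was 0.57 (edgeR p = 0.0041).

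Members best known from forebrain neurons gave other values. Arc was at 17.4 to 30.3 normalized CPM (median 21.5) in the high class and 16.5 to 36.5 (median 19.7) in the low class, a log2 fold change of -0.01 (edgeR p = 0.98). Egr1 was at 28.0 to 48.97 normalized CPM and 21.1 to 43.1, a log2 fold change of 0.10 (edgeR p = 0.58). Npas4 was at 0.48 (edgeR p = 0.057) and Junb at 0.32 (edgeR p = 0.21), and without mouse M755 these were 0.53 (p = 0.048) and 0.54 (p = 0.017). Arc and Egr1 were at 0.19 and 0.18 without mouse M755. Of 22 effectors, 1 was higher (Dusp1) and none lower, and without this mouse 2 were higher and 2 lower. Of 14 late response genes, 1 was higher, the neuropeptide gene Cort at 1.18, and none without mouse M755. Of 11 vascular genes, 1 was lower, the decay factor Zfp36 at -0.44, and without mouse M755 3 were lower. Beside these counts, 0.78% of all genes were higher and 2.49% lower, and without mouse M755 0.948% and 1.27%.

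The cerebellar level of 1700016P03Rik also differed between the classes. It was at 2.57 to 5.90 normalized CPM (median 4.60) in the high class and 1.68 to 3.61 (median 1.91) in the low class, with a log2 fold change of 0.97 (SE 0.24, edgeR p = 0.0015, adjusted p = 0.82). The difference was 1.04, 1.23 and 1.00 in the 3 litters, the last of them resting on mouse M755. Without mouse M755 the log2 fold change was 0.92. Chdh, Zfp36l1, Ermap and Stom, which separated the classes in cortex, did not pass the unadjusted threshold in cerebellum or striatum.

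Markers of other tissue also differed in these libraries, and their part in the cerebellar values was not tested. Of 8 oligodendrocyte genes none was positive, with a median of -0.64, and without mouse M755 7 were positive, with a median of 0.17. Their summed level was 5503 to 8850 normalized CPM in the high class and 4168 to 32685 in the low class, the highest being mouse M755. Of 7 choroid plexus genes none was positive, with a median of -0.81 (-1.06 without mouse M755) and a summed level of 27.0 to 1447 normalized CPM against 24.6 to 2595. Of 11 striatal neuron markers 1 was positive, with a median of -0.28 (-0.04 without mouse M755). At unadjusted p under 0.05, 2 of them were lower, beside 2.49% of all genes. Without mouse M755 none was lower, beside 1.27% of all genes. The summed levels overlapped for choroid plexus and oligodendrocyte genes.

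Some glucocorticoid-induced genes were lower in the cerebellum of high-Fos mice. Of 14 tested, 6 were lower and none higher at unadjusted p under 0.05, beside 2.49% of all genes lower, with a list median of -0.31. Without mouse M755, 9 were lower, beside 1.27% of all genes, with a median of -0.44. With litter in the fit 4 were lower and 1 higher, beside 11.5% of all genes lower, and the list median was -0.33, -0.34 and 0.17 in litters 1, 2 and 3. Fkbp5 had the smallest p of all genes. It was at 10.0 to 15.0 normalized CPM (median 12.7) in the high class and 16.4 to 34.7 (median 23.7) in the low class, with no overlap. Its log2 fold change was -1.01 (SE 0.19, edgeR p = 0.00016, adjusted p = 0.82), and it was -1.20, -0.85 and -0.91 in litters 1, 2 and 3. Without mouse M755 it was again -1.01 (edgeR p = 0.00025). By DESeq2 its adjusted p was 0.017.

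Errfi1, Nfkbia and Sgk1 of this list are also in the activity lists. Plin4 was at 4.41 to 8.08 normalized CPM (median 5.38) and 2.15 to 19.7 (median 12.8), with a log2 fold change of -1.13 (SE 0.41, edgeR p = 0.016). Mouse M755 alone accounted for the overlap, since the other 5 low-Fos mice were at 8.43 to 19.7 normalized CPM. The other members past the threshold were the transcription factor Zbtb16 at -1.35, Map3k6 at -0.64, the pyruvate dehydrogenase kinase Pdk4 at -0.53 and Arrdc2 at -0.38. Without mouse M755 these were -1.53, -0.81, -0.56 and -0.43, and Plin4 was -1.35. Within litter 3, whose only low-Fos mouse is M755, Plin4, Zbtb16 and Map3k6 had the opposite sign, at 1.38, 0.81 and 0.71. The 2 lowest Fos values in cortex were those of litter-1 mice M763 and M762, which also had the highest cerebellar Fkbp5, at 34.6 and 34.7 normalized CPM. Vdac3-ps1, annotated as an unprocessed pseudogene and uncertain because reads may be shared with its parent gene, was among the 3 smallest p values with a log2 fold change of -2.02 (SE 0.45, edgeR p = 0.00058).

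**Figure D4:**
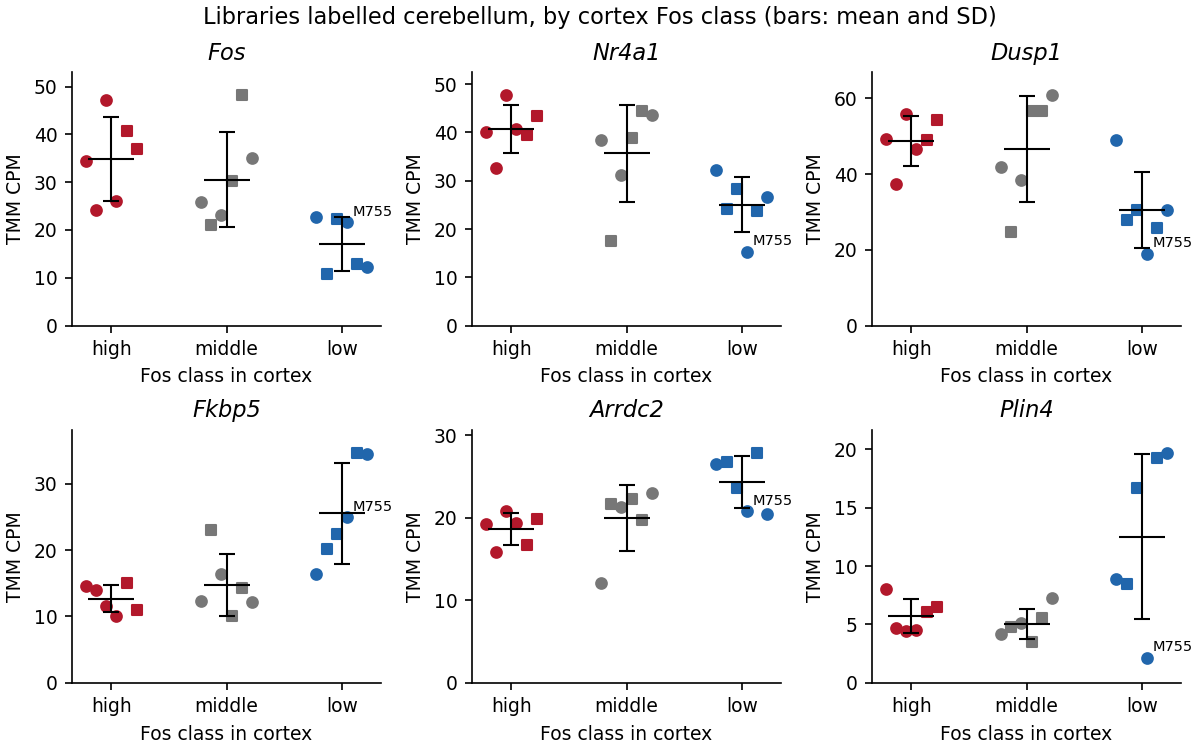
Normalized CPM of 6 genes in the cerebellum libraries by class, 1 point per mouse (circles Mbd5+/GT, squares wild-type), with mean and SD bars and mouse M755 marked. The classes do not overlap for Fos, Nr4a1 and Fkbp5.

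In the striatum of the same mice, Fos did not separate the classes. It was at 15.0 to 33.1 normalized CPM (median 24.3) in the high class and at 13.4 to 61.6 (median 18.5) in the low class, where mouse M755 had the highest value. The means were 23.9 ± 6.37 and 27.3 ± 19.0 normalized CPM (SD, n = 6 each), a difference of mean log2 CPM of 0.0088 (2-sided exact permutation test, p = 0.98). The difference was 0.14, 0.84 and -1.52 in litters 1, 2 and 3. The edgeR log2 fold change was -0.19 (SE 0.36, p = 0.60), and without mouse M755 it was 0.23.

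No striatal gene passed the adjusted threshold with edgeR or DESeq2. At unadjusted p under 0.05, 300 genes (1.63%) were higher and 591 (3.2%) lower. Of 23 immediate-early transcription factors, 3 were higher and 1 lower, and 17 had a positive log2 fold change, with a median of 0.23. With surrogate variables in the fit 9 were higher and none lower, 22 were positive and the median was 0.42, beside 0.954% of all genes higher, and in cerebellum the same fit had 8 of 21 higher, beside 2.41%. With the 9 highest against the 9 lowest mice none of the 23 was called and the median was 0.02, beside 1.58% of all genes higher. Without the repeated libraries 1 was higher, beside 1.12% of all genes. Egr1 was at 175 to 455 normalized CPM (median 332) in the high class and 165 to 316 (median 213) in the low class, with a log2 fold change of 0.60 (SE 0.22, edgeR p = 0.019) and differences of 0.38, 0.64 and 0.59 within litters. Nr4a1 was at 86.4 to 208 normalized CPM (median 126) and 56.6 to 125 (median 94.6), with a log2 fold change of 0.62 (SE 0.23, edgeR p = 0.019). Egr2 was at 9.71 to 22.3 normalized CPM (median 11.3) and 3.96 to 13.4 (median 6.88), with a log2 fold change of 0.85 (SE 0.31, edgeR p = 0.017). The classes overlapped for all 3 genes, and adjusted p was 0.95 for each. The lower member was Maff at -0.54.

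Of 22 striatal effectors, Dusp14 at 0.64 and Rgs2 at 0.52 were higher and none was lower. Among late genes the receptor Gpr3 was higher at 0.49, and among vascular genes the endothelial gene Apold1 was lower at -0.87. Over the 4 lists, 6 of 71 genes were higher and 2 lower, beside 1.63% and 3.2% of all genes. The number higher depended on single mice, at 13 without M758, 11 without M765, 10 without M768 and 3 without M752, beside 2.07%, 4.51%, 1.92% and 0.851% of all genes. It was 18 with surrogate variables and 2 with 9 against 9 mice, beside 0.954% and 1.58% of all genes. Arc was at 106 to 333 normalized CPM (median 220) and 88.9 to 203 (median 175), a log2 fold change of 0.53 (edgeR p = 0.067). Of 14 glucocorticoid-induced genes, 1 was higher (Per1) and none lower, with a median of -0.28. Without mouse M755, 6 were lower and 1 higher, beside 2.4% and 1.06% of all genes, with a median of -0.40.

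Striatal neuron markers differed with the classes in these libraries, and their part in the striatal values was not tested. All 12 had positive log2 fold changes, with a median of 0.81, and 1 passed the unadjusted threshold, beside 1.63% of all genes higher. Their summed level was 2017 to 9649 normalized CPM in the high class and 838 to 5532 in the low class. The 3 smallest p values in striatum belonged to BC051019 at -1.57, Cfap100 at -0.74 and Trpc4 at -1.68. The ciliary gene Cfap100 did not overlap, at 3.77 to 6.83 normalized CPM against 7.61 to 12.3. Nor did BC051019, at the low level of 0.215 to 0.639 normalized CPM against 0.676 to 2.03, while Trpc4 overlapped. Over all striatal genes, 10 (0.0542%) were higher and 12 (0.0651%) lower with no overlap, and none of the immediate-early lists was among them.

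**Figure D5:**
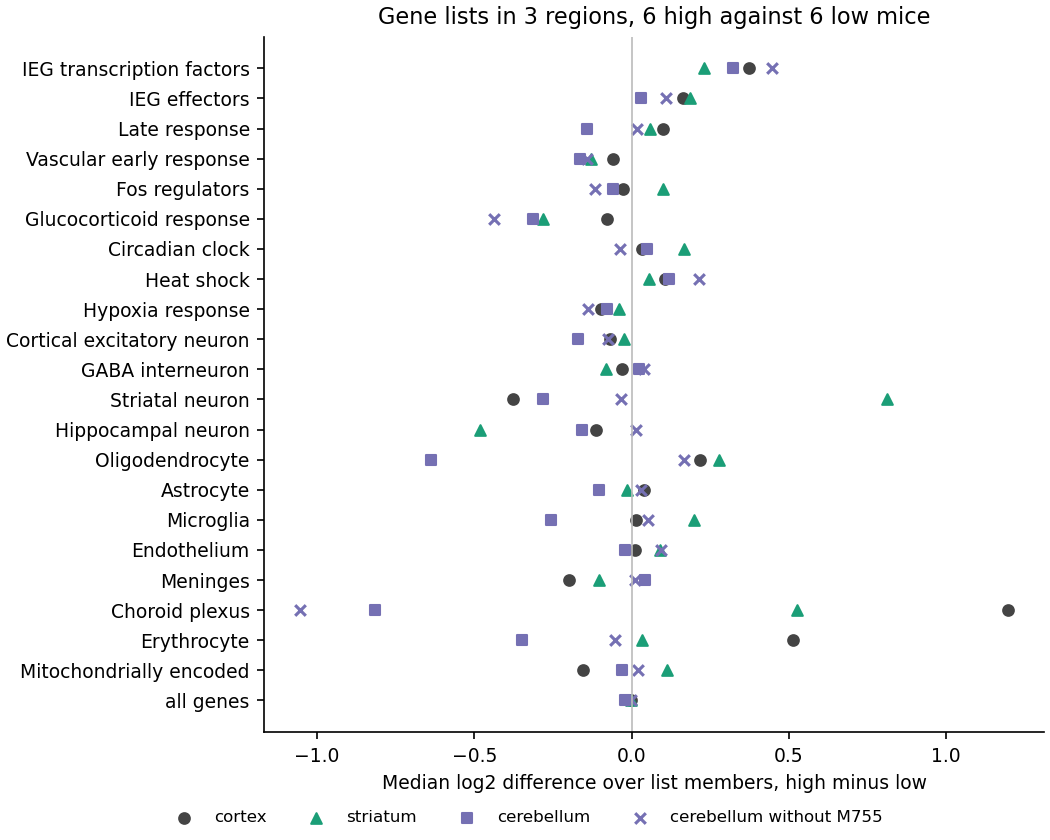
Median log2 difference, high minus low class, over the measured members of each gene list in cortex, striatum and cerebellum, and in cerebellum without mouse M755. Immediate-early transcription factors lie at 0.23 to 0.45 in every region, while striatal neuron and choroid plexus markers take opposite signs in different regions.

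The difference between striatum and cerebellum was tested directly for Fos. Within mice, the high minus low difference of log2 CPM was lower in striatum than in cerebellum by 1.04 (2-sided exact permutation test, p = 0.024), and without mouse M755 by 0.84 (p = 0.048, exact permutation test). The fit across 19698 genes held no term for mouse and so left the pairing of libraries unused. In that fit the interaction for Fos was -1.22 (SE 0.45, edgeR p = 0.013, adjusted p = 0.86). No gene passed the adjusted threshold, and 653 (3.32%) were higher and 343 (1.74%) lower at unadjusted p under 0.05.

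Over all 18 mice, cortex and cerebellum Fos were related, with Pearson r = 0.633 (permutation p = 0.0049, adjusted over 2 relations 0.0097) and Spearman rho = 0.629 (permutation p = 0.0060, adjusted 0.012). Without mice M762 and M763, the farthest from the cortex median, r was 0.426 (permutation p = 0.10) and rho 0.491 (permutation p = 0.056), so both stayed positive but no longer passed 0.05. Within genotypes r was 0.668 in Mbd5+/GT (n = 10, permutation p = 0.031) and 0.659 in wild-type mice (n = 8, exact permutation p = 0.083), and without litter 2 it was 0.702 (n = 13). It was r = 0.933 in litter 1 (n = 6, exact permutation p = 0.013) and r = 0.113 in litter 3 (n = 7, exact permutation p = 0.79), and none was computed in litter 2, since a correlation was computed only over 6 or more mice. The relation was therefore clear in litter 1 only, which includes mice M762 and M763. Litter 3 includes mice M754, M755 and M756, whose cerebellum libraries held Hoxb5 at 38.5, 87.3 and 13.3 normalized CPM. With 7 mice and these libraries, its r cannot show whether the relation held in that litter. Over all mice other than M755 r was 0.637. Cortex and striatum Fos gave r = 0.055 (permutation p = 0.83) and rho = 0.065 (permutation p = 0.80).

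Between genotypes, no activity gene passed adjustment in cortex, and more of them were lower than higher in Mbd5+/GT mice. In the fit of all 18 cortex libraries with 4 surrogate variables, 2 of 18661 genes passed the adjusted threshold (0.0107%), Mbd5 itself and Hs6st2, and neither is an activity gene. Of 71 activity genes, 23 had a positive log2 fold change in Mbd5+/GT mice, with a median of -0.05. At unadjusted p under 0.05, 2 of the 71 were higher in Mbd5+/GT mice and 8 lower, beside 3.96% and 4.51% of all genes. These 10 in all ran from 2 (without surrogate variables) to 12 (by DESeq2) over 5 alternatives. Tissue markers differed with genotype in the same fit, and their part in these values was not tested. Of 12 striatal neuron markers none was positive and 3 were lower, with a median of -0.41, and of 7 choroid plexus markers 6 were higher, with a median of 1.57. The higher genes were Jun and Nptx1, and the lower ones included Homer1 at -0.26 and Rgs2 at -0.20. Fos was at 0.07 (SE 0.19, edgeR p = 0.73), Arc, Egr1 and Npas4 were not among the 10, and none of the 10 passed adjustment.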

How the data were processed

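Poly(A) RNA of 3 brain regions of 18 mice was sequenced. The deposited values are raw read counts per gene that the authors made; their processing notes name FastQC 0.10.1, STAR 2.4.2 and GRCm38. Whether counting used strand is not given in the sources used here, so overlapping and antisense genes are uncertain. GENCODE and RefSeq tables named 46488 of 47069 identifiers. The 92 spike-in sequences (0.0207 to 0.728% of a library) were left out. The members and gene lists were chosen with earlier results of these data known.

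Counts were TMM-scaled and written as log2 CPM with a prior count of 2 for cortex differences (genes at a mean of at least 1 CPM). Striatum, cerebellum, their interaction and genotype (with 4 surrogate variables, sva 3.50.0) were fitted with edgeR 4.0.16, robust quasi-likelihood and Benjamini-Hochberg adjustment over every gene that exceeded 4 counts in 6 or more libraries (8 for genotype). Single values were tested by exact permutation. DESeq2 1.42.0 was an alternative. R 4.3.3, Python 3.11.15, pandas 2.3.3 and scipy 1.17.1 were used. Named genes were Fos, the 14 activity genes with the largest cortex difference with Arc, Egr1, Npas4 and Junb, genes outside the lists that did not overlap in cortex, the 3 smallest p per region and the 2 largest members of each other list; further list members are named as examples.

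Striatum and cerebellum libraries of a mouse come from the same animal by the labels, so mouse can be a block in their interaction. The deviations of same-mouse libraries correlated at a median of 0.0022, against -0.0112 between different mice. Each set of simulated counts held 100 genes changed 2-fold and 100 changed 3-fold. On these counts the cerebellum fit over 18067 genes recovered 60% of 2-fold and 85% of 3-fold changes. The striatum fit over 18440 genes recovered 76% and 90%. These shares apply to counts with that many strong changes, and are not the power of the tests on the real libraries. Fos in cerebellum, at a log2 fold change of 1.02, had an edgeR adjusted p of 0.82. Mouse numbers name animals and do not order them.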

Additional observations from a re-analysis of the deposited data

Results flagged for a closer look

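The effect of class on Fos differed between the striatum and the cerebellum of the same mice, with a within-mouse difference of -1.04 on the log2 scale (2-sided exact permutation test, p = 0.024). Mouse M755, in the low class, gave 3 values far above the others of its class. Its Arc in the library labelled cerebellum was 36.5 normalized CPM, against 16.5 to 23.9 in the other 5, and its Junb there was 7.23 normalized CPM, against 3.20 to 4.42. Its Npas4 in striatum was 63.2 normalized CPM, against 12.7 to 30.1. Of 48 groups of 6 values examined this way, chance alone gives such a value in about 1 in 20.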

How the results depend on the processing

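In striatum and cerebellum, no gene passed adjustment under any alternative other than DESeq2 in cerebellum, which called 2 (Fkbp5 and Vdac3-ps1), and surrogate variables in cerebellum, which gave 3 (Hif3a, Vdac3-ps1 and Plin4). The Fos difference in cerebellum ranged from 0.94 to 1.15 when each mouse was left out, and was 0.48 with 9 against 9 mice. Fos in striatum changed sign, to -0.061 without TMM scaling, -0.13 with 9 against 9 mice and -0.34 without litter 2, and ranged from -0.15 to 0.29 when each mouse was left out. Its edgeR log2 fold change was 0.0045 with sex added, 0.71 with surrogate variables, 0.0060 without the repeated libraries and -0.33 to 0.23 when each mouse was left out. The cortex and striatum correlation was -0.043 without litter 2, -0.15 without mice M762 and M763, -0.040 on linear values and -0.0071 without mouse M754. The cortex and cerebellum r was 0.43 without mice M762 and M763. Cortex genes higher without overlap numbered 8 without TMM scaling, 19 with 5 against 5 mice and 1 with 9 against 9. Those lower numbered 1 at 5 CPM or more, 11 with 5 against 5 and 0 with 9 against 9, and activity genes without overlap numbered 3 without scaling and 2 with 5 against 5. With mouse as a replicate block, the interaction of class and region again had 0 genes past adjustment, and 314 higher and 271 lower at unadjusted p under 0.05. The alternatives without mouse M754, and those without both mice M754 and M755, were chosen after the data were seen. The cause of these shifts was not tested. Genotype calls in cortex ranged from 0 to 62 genes, 62 of them by DESeq2. The 6 mice per class, with 1 library per mouse and region, limit what can be called.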
